A study of Homo sapiens with 2 samples.

Results

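Genes of blood coagulation, fibrinolysis, the complement system and the serpins were compared between A549 spheroid culture and A549 monolayer culture. The 48 genes were taken from a fixed list of names covering clotting factors, the fibrinogen chains, the protein C pathway, plasminogen and its activators, serine protease inhibitors of the serpin family, and complement components with their regulators. All 48 had a probe set of their own among 19775 genes with a probe set. A549 is an established human lung adenocarcinoma line. The spheroid sample came from A549 cells held for 12 days without serum in DMEM/F12 containing N2 supplement, bFGF at 10 ng/ml and EGF at 20 ng/ml, in suspension. The monolayer sample came from A549 cells kept attached for 12 days in DMEM with 10% FBS, glutamine, penicillin and streptomycin. Serum, base medium, supplement, growth factors and attachment therefore changed together, and their effects cannot be told apart. A single Affymetrix Human U133 plus 2.0 array was run per culture, so there are no replicates and no test between the cultures was possible.

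Coagulation is a cascade of plasma proteases that ends with thrombin cutting fibrinogen to fibrin, and it is held back by inhibitors and by the thrombomodulin and protein C pathway, which destroys activated factors V and VIII. Fibrinolysis runs the other way, with plasminogen activators making plasmin, which dissolves fibrin. Complement is a related cascade that marks cell surfaces through C3 and C4 and ends in a membrane pore, while CD46, CD55, CD59 and clusterin shield host cells. The serpins are suicide inhibitors of these proteases. Most of the plasma proteins of these systems are made by the liver, whereas thrombomodulin, tissue factor, the urokinase receptor and the membrane regulators of complement are also made by epithelial cells.

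Each probe set on the array gives 1 signal in arbitrary linear units, which can be compared between the cultures for the same gene but not between genes. Both arrays had been scaled to a common level (trimmed mean signal 500.1). Signals under the median of the array, 119.2 in spheroid culture and 108.2 in monolayer culture, were treated as not above the floor, and a gene was read from its brightest probe set and is called dim in both cultures where that signal was above the floor on neither array. A ratio with only 1 culture above the floor is given as "at least". Log2 ratios of spheroid over monolayer had a robust SD of 0.53 over the 11528 genes above the floor in both cultures. For 5453 genes with several such probe sets, the difference between the log2 ratios of the 2 brightest had an ordinary SD of 0.50. The second value is an SD of a difference between 2 readings, so the 2 values are unlike measures. A limit of 3-fold, 1.58 on the log2 scale, was used to describe single genes. Of 11 measured markers of A549 and lung adenocarcinoma epithelium, all were above the floor in both cultures, among them AKR1B10 with signals of 69583 in spheroid and 54097 in monolayer culture. Their summed signal was 377846 in spheroid and 387482 in monolayer culture. Such a sum over genes is weighted to the brightest probe sets, here and for the marker lists below. KRT7, a keratin of simple epithelium, was the 1 marker of this list past the limit, with 7323 in spheroid and 27459 in monolayer culture. CDKN2A, which A549 cells lack, had 251.5 and 85.87 on the brightest of its 3 probe sets and stayed under the floor on the other 2. In the free-text field of both samples the submitters wrote the name of a hepatoma line with that of a compound, against the cell line field, the titles and the study's methods.

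Of the 48 genes, 9 had a signal at least 3-fold higher in spheroid culture, 1 was at least 3-fold lower, 26 lay between these limits and 12 were dim in both. Counts of genes between the limits, here and below, include bounds, whose true ratio may lie past a limit. Among the 26 these were F11, PLG and C2, above the floor in spheroid culture only, and SERPINF1, in monolayer culture only. Over all 19775 genes with a probe set, 1.56% passed the limit on the higher side and 1.41% on the lower side. The members' shares were 18.8% and 2.08%. The 48 genes and the limit were chosen with earlier results of these data known, so these shares are descriptions and were not tested. In the 9 other lists of related genes given below, the higher share ran from 0% to 11.1%. Among genes above the floor in either culture, the shares over all genes were 2.34% higher and 2.11% lower. Dim in both were 25% of the members and 33.1% of all genes. Of the members, 30 were above the floor in both cultures, 5 in spheroid culture only and 1 in monolayer culture only. Over all 19775 genes these counts were 11528, 846 and 855. The median log2 ratio of the 36 members above the floor was 0.45, while that of all 13229 such genes was 0.04. The genes past the limit were F5, SERPINA1, THBD, FGL1, PROS1, SERPINE2, SERPINA5, C1S and C5 on the higher side and TFPI2 on the lower side. For 7 of the 9 higher genes the signal was above the floor in both cultures, and for SERPINA1 and SERPINA5 the fold is a bound. Just outside the limit lay CFB, 2.90-fold higher, and CD55, 2.93-fold lower, while C5, at 3.36-fold, was the higher gene nearest to it on the inside. Fewer cells expressing a gene and less RNA per cell cannot be told apart in these values.

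**Figure D1:**
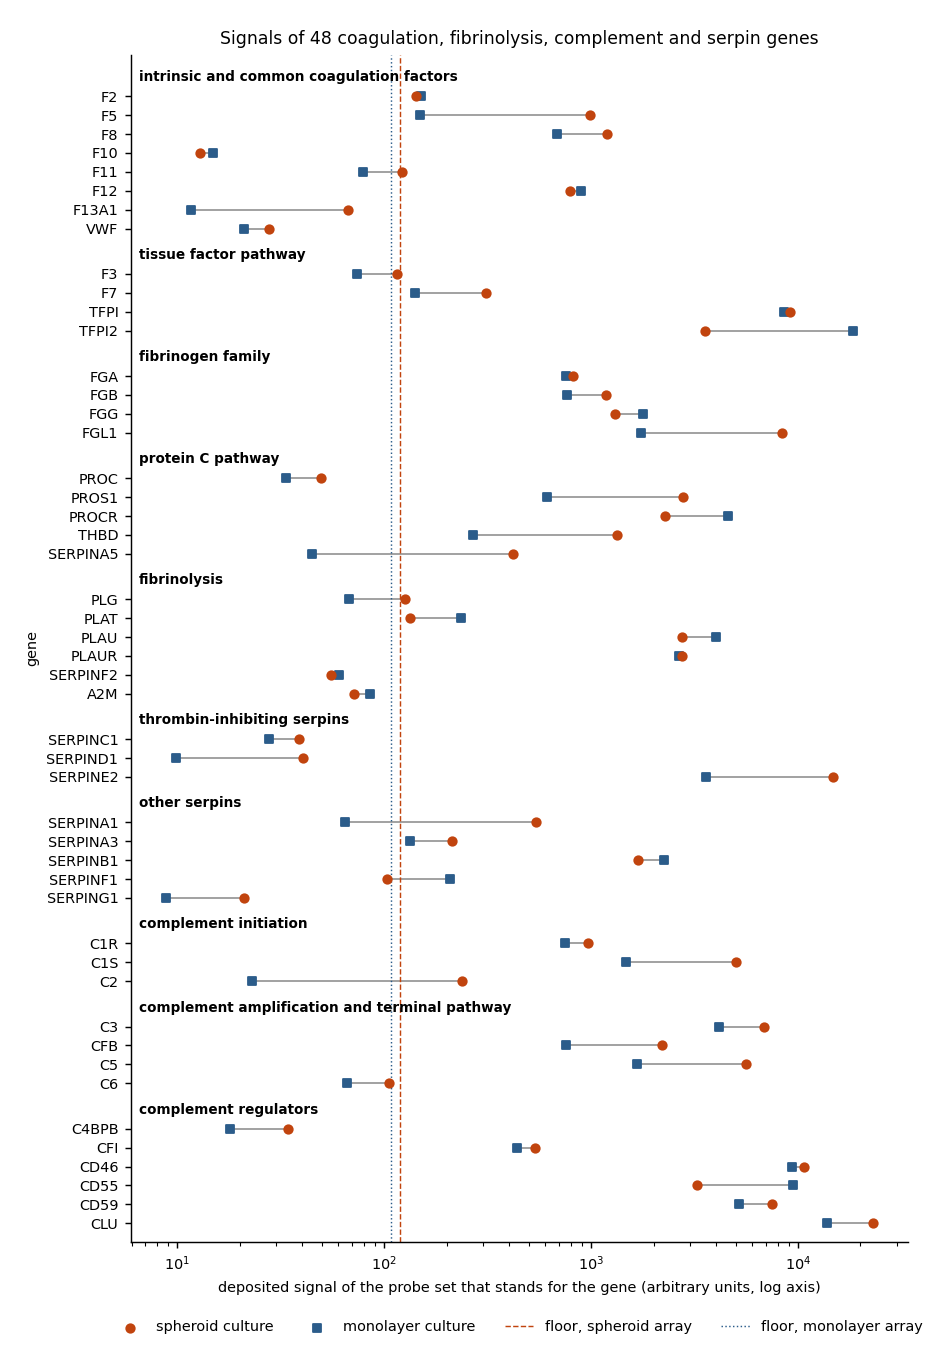
Deposited signal (arbitrary units, log axis) of the probe set that stands for each of the 48 genes, grouped by role, with circles for spheroid culture, squares for monolayer culture and dashed and dotted lines for the floors of the spheroid and monolayer arrays. TFPI2 has its spheroid signal of 3536 far to the left of its monolayer signal of 18448, whereas F5, FGL1, PROS1, THBD and SERPINE2 lie far to the right in spheroid culture.

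**Figure D2:**
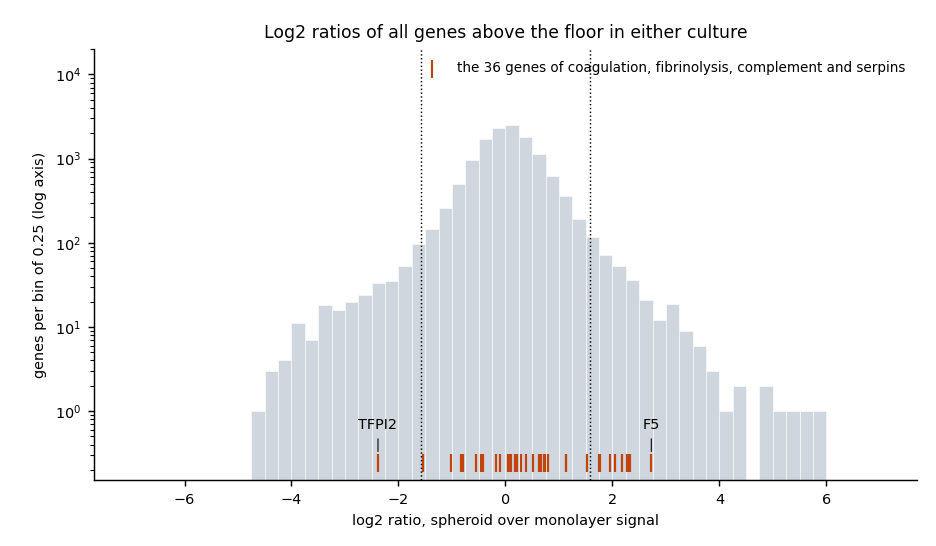
Number of genes (log axis) in bins of 0.25 of the log2 of the spheroid over the monolayer signal for 13229 genes above the floor in either culture, with a tick for each of the 36 members among them, bounds included, and dotted lines at 3-fold. The ticks of F5, at 2.73, and TFPI2, at -2.38, mark the ends of the plotted members, whose bounds are least values, and genes outside these families reach farther on both sides.

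The promoter sequences of RefSeq, 250 bases before to 50 after a transcription start, were available for 36 of the 48 genes on GRCh38.p14. They are shown for SERPINA1 and C5, which were higher in spheroid culture, for FGA and FGB, which lay between the limits, and for TFPI2, which was lower. Sequences run 5′ to 3′ along the gene, and capitals mark 1 match to GTTAAT, a half-site of the liver-enriched factor HNF1, on either strand (ATTAAC where it lies on the other strand), or, in TFPI2, a match to the AP-1 site TGANTCA. The windows lie at chr14:94388553-94388852 (minus strand) for SERPINA1, at chr9:121050226-121050525 (minus strand) for C5, at chr4:154590693-154590992 (minus strand) for FGA, at chr4:154562761-154563060 (plus strand) for FGB and at chr7:93890704-93891003 (minus strand) for TFPI2.
SERPINA1: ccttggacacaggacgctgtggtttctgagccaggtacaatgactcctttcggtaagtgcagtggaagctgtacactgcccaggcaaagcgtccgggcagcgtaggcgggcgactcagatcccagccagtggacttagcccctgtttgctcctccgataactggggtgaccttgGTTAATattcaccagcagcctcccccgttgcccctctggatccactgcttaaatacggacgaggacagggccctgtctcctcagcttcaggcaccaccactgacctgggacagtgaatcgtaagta
C5: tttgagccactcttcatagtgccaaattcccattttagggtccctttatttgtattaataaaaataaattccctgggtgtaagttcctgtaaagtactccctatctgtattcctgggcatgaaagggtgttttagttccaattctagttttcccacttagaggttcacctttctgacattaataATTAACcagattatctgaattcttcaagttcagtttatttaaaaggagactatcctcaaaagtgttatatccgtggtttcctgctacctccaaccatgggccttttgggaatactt
FGA: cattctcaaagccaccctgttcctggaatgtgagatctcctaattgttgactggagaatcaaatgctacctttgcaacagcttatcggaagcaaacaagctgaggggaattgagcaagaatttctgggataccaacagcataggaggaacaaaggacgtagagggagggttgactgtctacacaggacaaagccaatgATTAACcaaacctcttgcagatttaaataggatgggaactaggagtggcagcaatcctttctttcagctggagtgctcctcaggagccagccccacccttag
FGB: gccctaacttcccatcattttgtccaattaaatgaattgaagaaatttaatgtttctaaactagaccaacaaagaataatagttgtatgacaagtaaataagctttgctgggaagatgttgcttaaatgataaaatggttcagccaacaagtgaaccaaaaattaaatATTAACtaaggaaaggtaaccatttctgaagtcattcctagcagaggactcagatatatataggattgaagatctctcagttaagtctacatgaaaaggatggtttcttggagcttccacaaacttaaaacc
TFPI2: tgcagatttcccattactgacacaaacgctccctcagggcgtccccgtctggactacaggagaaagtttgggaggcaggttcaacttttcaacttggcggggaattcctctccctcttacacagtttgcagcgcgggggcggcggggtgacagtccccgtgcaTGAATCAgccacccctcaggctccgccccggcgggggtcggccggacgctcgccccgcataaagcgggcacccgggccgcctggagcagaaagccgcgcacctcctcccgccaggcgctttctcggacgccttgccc
The first base of the match lay 76 bases before the start in SERPINA1, 66 in C5, 52 in FGA, 82 in FGB and 87 in TFPI2. SERPINA1 has a second annotated window, at chr14:94390586-94390885, which held no match to GTTAAT, and neither did the second window of C5. FGB has an overlapping second window, at chr4:154562730-154563029, in which the same match lies 51 bases before the start, so the distance depends on the start used.

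The half-site GTTAAT occurred on either strand in 9 of the 36 genes with a window (25%), namely F2, FGA, FGB, PROC, PLG, SERPINA1, C1R, C5 and CFI, and in 8.27% of 27305 genes with a window. Of these 9 genes, SERPINA1 and C5 were past the limit, and PROC was dim in both, so the letters were present in genes of every outcome but the lower one. The AP-1 site TGANTCA was found in F3, TFPI2, PLAUR and CD59, which is 11.1% of the genes with a window against 9.37% of all genes. The STAT palindrome TTCNNNGAA was found in 10 members (27.8% against 9.38%) and the acute phase core CTGGGAA in 5 (13.9% against 13.1%). Matches to these STAT letters overlapped in C4BPB. The C/EBP half-sites TTGCNNNAA stood in 6 members (16.7% against 11.1%), among them F5. The FOXA core TGTTTGC stood in FGA and SERPINA1 (5.56% against 4.76%), the TATA box TATAAA in 3 members (8.33% against 14%), the GC box GGGCGG in 15 (41.7% against 48.3%) and the KLF core CACCC in 27 (75% against 63.1%). No member held the sterol response element TCACNCCAC, found in 1.39% of all genes. All motifs were searched on both strands, and the shares were not tested. A match is a description of the letters and says nothing of whether a factor binds there.

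Among the intrinsic and common coagulation factors, F5 was higher in spheroid culture, 4 genes lay between the limits and 3 were dim in both. F5 encodes factor V, the cofactor with which factor Xa turns prothrombin into thrombin, and the activated form is a substrate of activated protein C. Its signal was 980.8 in spheroid and 148.1 in monolayer culture, 6.62-fold higher. Both other probe sets of F5 were higher in spheroid culture too, with signals of 943.2 and 35.46 on one and 197.4 and 2.402 on the other. With the floor at the 75th percentile its log2 ratio was at least 1.04, and without probe sets named _s_at or _x_at at least 0.87, bounds that do not reach the limit because the monolayer signal was under the floor. F5 had the highest ratio of the 30 members above the floor in both cultures. It is among the genes that the study listed as upregulated on the same arrays, so that listing is no independent evidence of its direction. F8, whose product is the cofactor of factor IXa, had 1194 in spheroid and 686.5 in monolayer culture, 1.74-fold higher and within the limit. F2, which encodes prothrombin, had 141.5 and 151.2, close to the floor in both cultures, and F12, which starts the contact pathway, had 792.3 in spheroid and 894.5 in monolayer culture. F11 crossed the floor in spheroid culture alone, with 122.3 against 78.93, and on only 1 of its 4 probe sets. F10, F13A1, whose product cross-links fibrin, and VWF, the carrier of factor VIII, were dim in both. Prothrombin and factor X, the partners of factor V in thrombin formation, thus had signals near or under the floor in both cultures.

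In the tissue factor pathway, TFPI2 was the single gene of the 48 at least 3-fold lower in spheroid culture. The gene, whose promoter window held the AP-1 letters, encodes a secreted Kunitz-type inhibitor that acts on plasmin, trypsin and matrix-degrading proteases. It had 3536 in spheroid and 18448 in monolayer culture, 5.22-fold lower, and the other probe set gave 1710 and 9706, 5.67-fold lower. TFPI, its relative that blocks factor Xa and the complex of factor VIIa with tissue factor, had 9087 in spheroid and 8566 in monolayer culture. The 5 probe sets of TFPI were split, with 2 higher and 3 lower in spheroid culture, and its ratio had the opposite sign under median scaling, in which each array is divided by its own median, and when its probe sets were averaged on the log scale. The log2 ratio was -2.38 for TFPI2 and 0.09 for TFPI. F7, which encodes factor VII, had 308.3 in spheroid and 140.8 in monolayer culture, 2.19-fold higher. F3, tissue factor itself and the receptor that starts clotting, was under the floor in both cultures, with 114.7 and 73.77 on its single probe set.

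The 3 fibrinogen chains lay between the limits while the related gene FGL1 was higher. FGA had 815.7 in spheroid and 757.4 in monolayer culture, FGB had 1179 and 767.1, and FGG had 1297 and 1781. Their log2 ratios of 0.11, 0.62 and -0.46 went both ways, and that of FGA turned to -0.03 under median scaling. The 3 genes lie side by side on chromosome 4 in the order FGB, FGA and FGG, and their products are joined in 1 secreted hexamer. FGL1 encodes fibrinogen-like protein 1, a liver-derived secreted protein that also binds the immune receptor LAG-3. Its signal was 8352 in spheroid and 1731 in monolayer culture, 4.83-fold higher on its single probe set.

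The protein C pathway held the most genes past the limit, with 3 of 5 higher in spheroid culture, against 1.56% of all genes. The median log2 ratio over the 4 above the floor was at least 2.06, since the ratio of SERPINA5 is a bound. THBD encodes thrombomodulin, the surface receptor that turns thrombin from cutting fibrinogen to activating protein C. It had 1326 in spheroid and 268.2 in monolayer culture, 4.95-fold higher, and the other probe sets gave 4.60-fold (836.3 and 181.7) and 2.21-fold (269.8 and 121.9). All 3 probe sets of THBD were therefore higher in spheroid culture, by different amounts. PROS1 encodes protein S, the cofactor of activated protein C, and had 2778 in spheroid and 613.6 in monolayer culture, 4.53-fold higher. It was read from 1 probe set of a kind that can also detect related transcripts, and a pseudogene close to PROS1 is known, so the share of each in this signal is uncertain. SERPINA5 encodes protein C inhibitor, which blocks activated protein C and also urokinase, and had 416.7 in spheroid culture and 44.66, under the floor, in monolayer culture, at least 3.85-fold higher. PROCR, the endothelial protein C receptor, which is also present on epithelial cells, went the other way with 2269 in spheroid and 4597 in monolayer culture, 2.03-fold lower and within the limit. PROC, the zymogen protein C itself, was dim in both, with 49.65 and 33.57. The genes past the limit thus included a receptor, a cofactor and an inhibitor of the pathway, while its central protease was not above the floor.

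**Figure D3:**
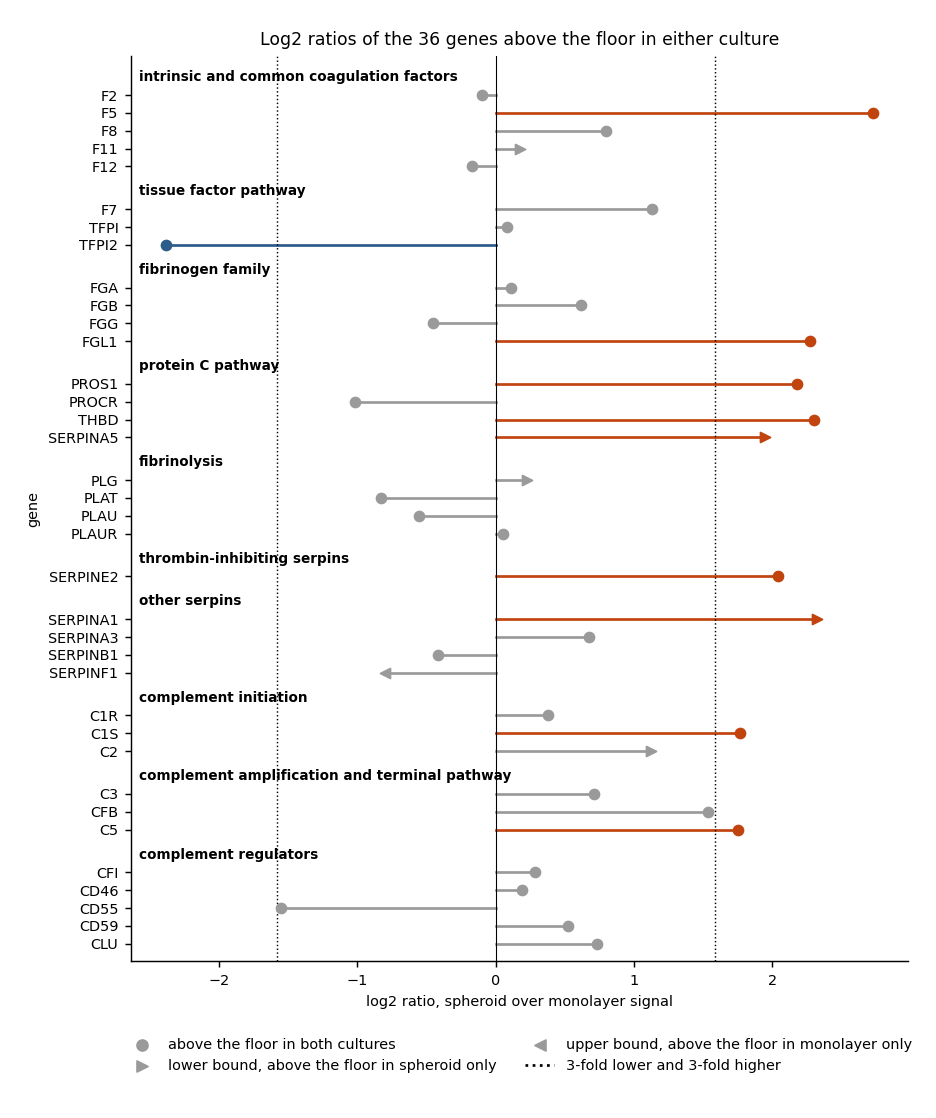
Log2 of the spheroid over the monolayer signal for the 36 genes above the floor in either culture, grouped by role, with arrowheads for bounds and dotted lines at 3-fold lower and 3-fold higher. Orange genes are at least 3-fold higher and TFPI2, in blue, is at least 3-fold lower, whereas CFB and CD55 stop just short of the lines.

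None of the 6 fibrinolysis genes passed the limit, with 4 between and 2 dim in both. PLAU, which encodes the plasminogen activator urokinase, had 2735 in spheroid and 4009 in monolayer culture, 1.47-fold lower. Its receptor gene PLAUR had 2746 and 2646, a ratio that changed sign under median scaling. PLAT, the tissue-type activator, had 132.5 in spheroid and 235.7 in monolayer culture, 1.78-fold lower, both near the floor. PLG, which encodes plasminogen, the substrate of both activators, reached 126.4 in spheroid culture, just above the floor, against 67.67 in monolayer culture. Only 1 of the 3 probe sets of PLG was above the floor. The plasmin inhibitor SERPINF2 and the broad protease trap A2M were dim in both.

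Among the thrombin-inhibiting serpins, SERPINE2 was higher in spheroid culture and the plasma inhibitors were not above the floor. SERPINE2 encodes protease nexin-1, a cell-associated inhibitor of thrombin, urokinase and plasmin. It had 14748 in spheroid and 3575 in monolayer culture, 4.13-fold higher. The second probe set of SERPINE2 was weak, with 133.7 in spheroid and 30.19, under the floor, in monolayer culture, at least 1.24-fold higher. Averaging both on the log scale gave a log2 ratio of at least 1.18, a bound that does not reach the limit. SERPINC1, which encodes antithrombin, and SERPIND1, heparin cofactor II, were dim in both.

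Of the other serpins, SERPINA1 was higher in spheroid culture. It encodes alpha-1-antitrypsin, the main plasma inhibitor of neutrophil elastase. Its signal was 542.8 in spheroid culture and 64.62, under the floor, in monolayer culture, at least 5.02-fold higher. A second probe set of SERPINA1 gave 541.9 and 33.9, another gave 171.3 and 129.3, or 1.32-fold higher, and the fourth was under the floor in both cultures. The size of the difference thus depended on the probe set, and SERPINA1 was under the limit without probe sets named _s_at or _x_at, at 0.41 on the log2 scale, while with its probe sets averaged the bound was at least 1.30. SERPINA3, antichymotrypsin, had 212.3 in spheroid and 133.2 in monolayer culture, 1.59-fold higher. SERPINA1, SERPINA5 and SERPINA3 belong to 1 cluster on chromosome 14, where SERPINA5 and SERPINA3 are neighbours among protein-coding genes and 4 other serpin genes separate SERPINA1 from SERPINA5. Their log2 ratios in this order were 2.33, 1.95 and 0.67, the first and second being bounds. SERPINB1, which guards cells against neutrophil proteases, had 1686 in spheroid and 2257 in monolayer culture, with 1 of 3 probe sets above the floor going the other way. SERPINF1, which encodes the non-inhibitory PEDF, was above the floor in monolayer culture alone, with 103.5 against 207.8, at least 1.74-fold lower in spheroid culture. SERPING1, the C1 inhibitor, had 20.98 and 8.837 and was dim in both.

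All 3 genes of complement initiation were above the floor in spheroid culture, and C1S was past the limit. C1S encodes the protease of the C1 complex that cuts C4 and C2, and had 5008 in spheroid and 1470 in monolayer culture, 3.41-fold higher. Its second probe set gave 1216 and 436.8, 2.78-fold higher, which is within the limit. C1R, the protease that activates C1s and the direct neighbour of C1S on chromosome 12, had 963.9 in spheroid and 743 in monolayer culture, 1.30-fold higher. The neighbours thus had unlike log2 ratios, 1.77 for C1S and 0.38 for C1R. C2, the protease component of the classical C3 convertase, had 236.1 in spheroid culture and 23.04, under the floor, in monolayer culture, at least 2.18-fold higher. Without a floor the log2 ratio of C2 was 3.36, past the limit.

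Of the genes of amplification and the terminal pathway, C5 was higher in spheroid culture and C6 was dim in both. C5, whose window held the HNF1 half-site, is split into the anaphylatoxin C5a and the fragment that starts the membrane pore. It had 5619 in spheroid and 1671 in monolayer culture, 3.36-fold higher on its single probe set. CFB, which encodes factor B, the protease of the alternative pathway convertase, had 2191 in spheroid and 756.3 in monolayer culture, 2.90-fold higher. C3, the central component that this convertase cuts, had 6806 in spheroid and 4151 in monolayer culture, 1.64-fold higher. The 3 genes above the floor in this group were all higher in spheroid culture, with a median log2 ratio of 1.53, and C6, part of the pore, had 104.9 and 65.69.

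No complement regulator was past the limit, and the membrane regulators went in different directions. CD55, decay-accelerating factor, which takes convertases apart, had 3229 in spheroid and 9457 in monolayer culture, 2.93-fold lower. All 3 of its probe sets were lower, by 2.93-fold, 2.17-fold and 2.09-fold, and median scaling put CD55 past the limit. CD59, which blocks the pore, had 7437 in spheroid and 5186 in monolayer culture, 1.43-fold higher, and all 5 of its probe sets were higher, by 1.41-fold to 1.97-fold. CD46, the cofactor with which factor I cuts C3b, had 10675 in spheroid and 9356 in monolayer culture, with 1 of its 3 probe sets higher and 2 lower. CFI, factor I itself, had 534.7 and 438.6, 1.22-fold higher in spheroid culture. CLU, which encodes clusterin, a chaperone that also binds the forming pore, had 22907 in spheroid and 13801 in monolayer culture, 1.66-fold higher, and 3 of its 4 probe sets were above the floor and higher, while the fourth was dim in both. C4BPB, the beta chain that ties C4b-binding protein to protein S, was dim in both.

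**Figure D4:**
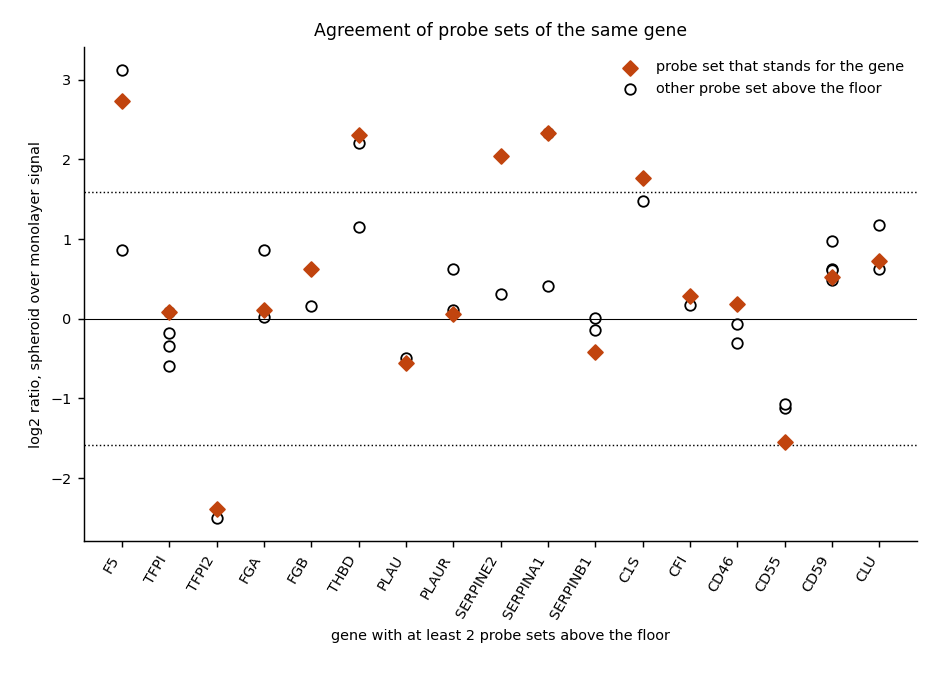
Log2 of the spheroid over the monolayer signal for every probe set above the floor of the 17 genes with at least 2 such probe sets, with filled diamonds for the probe set that stands for the gene, open circles for the others and dotted lines at 3-fold. In 14 genes all probe sets lie on the same side of 0, whereas TFPI, SERPINB1 and CD46 have probe sets on both sides.

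Agreement between probe sets could be examined in 17 of the 48 genes, in 14 of which all probe sets above the floor lay on the same side. The 3 genes with probe sets on both sides, TFPI, SERPINB1 and CD46, all lay between the limits. Of the 10 genes past the limit, F5, THBD, SERPINE2, SERPINA1, C1S and TFPI2 had a second probe set above the floor, and in each it went the same way. FGL1, PROS1, SERPINA5 and C5 rested on 1 probe set. Of all members, 8 were read only from probe sets named _s_at or _x_at, which can also detect related transcripts, namely F8, FGG, PROS1, PLAT, PLAU, C1R, C4BPB and CD46.

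**Figure D5:**
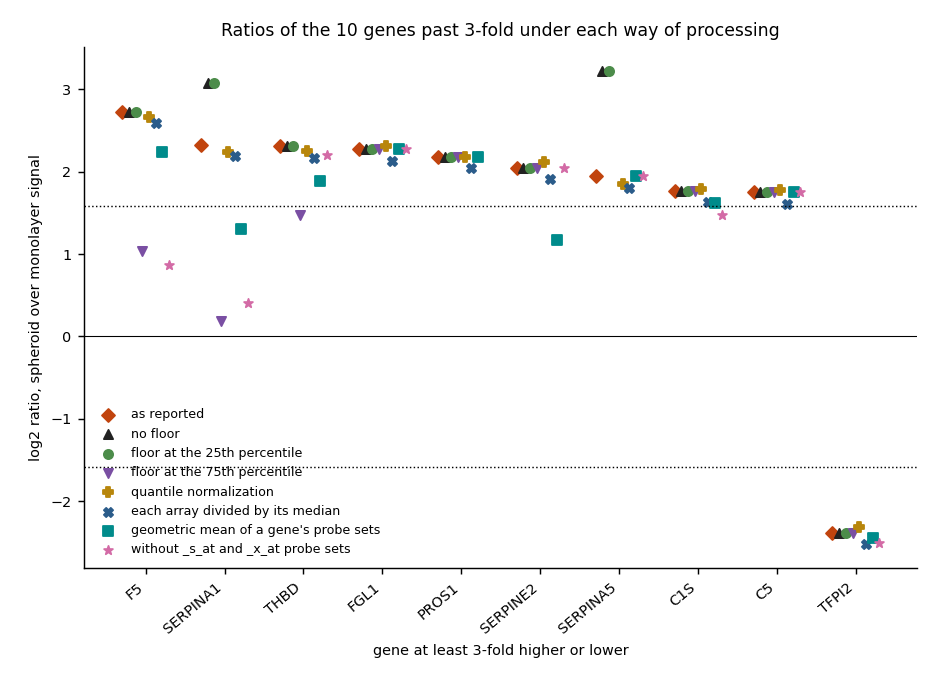
Log2 ratio of spheroid over monolayer signal of the 10 genes past 3-fold as reported and under 7 other ways of processing, with dotted lines at 3-fold. TFPI2, FGL1 and C5 lie past the lines under all of them, while SERPINA1 spreads from 0.18 to 3.07, points with the monolayer signal under the floor being lower bounds.

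Other genes of the same systems were read from 9 fixed lists of 164 genes, 143 of them with a probe set of their own. Of 23 other coagulation factors and receptors, HABP2 was higher and TGM2 lower in spheroid culture, 12 lay between and 9 were dim in both. The median log2 ratio was -0.23. HABP2 encodes a plasma protease that activates factor VII and urokinase, and had 551 in spheroid and 97.76 in monolayer culture, at least 5.09-fold higher. It is also in the study's own listing of upregulated genes. TGM2, tissue transglutaminase, a relative of the catalytic chain of factor XIII, had 2233 in spheroid and 7406 in monolayer culture, 3.32-fold lower, with all 3 probe sets above the floor lower. Of 9 other fibrinolysis genes, LRP1, the receptor that clears complexes of proteases with serpins, was higher with 772.3 in spheroid and 250.9 in monolayer culture, 3.08-fold, 7 lay between and 1 was dim in both. LRP1 was not past the limit in 4 of 7 alternatives, quantile normalization and median scaling among them, and had no value without probe sets named _s_at or _x_at.

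None of 20 other complement components was past the limit, and 15 of them were dim in both. Of 15 other complement regulators and receptors, C4BPA was higher, 5 lay between and 9 were dim in both. C4BPA encodes the alpha chain of C4b-binding protein, had 711.7 in spheroid and 176.5 in monolayer culture, 4.03-fold higher, and lies between C4BPB and CD55 on chromosome 1. In this stretch C4BPB was dim in both, C4BPA was past the limit and CD55, 2.93-fold lower, was within it. Of 18 other serpins none was past the limit, 8 lay between and 10 were dim in both. Of 21 other protease inhibitors, ITIH2 and PI3 were higher, 11 lay between and 8 were dim in both. Their median log2 ratio was 0.63. ITIH2, a heavy chain of the inter-alpha-trypsin inhibitor, had 1148 in spheroid and 110 in monolayer culture, 10.4-fold higher, the monolayer signal lying just above the floor. PI3 encodes elafin, an epithelial elastase inhibitor, and had 1971 in spheroid and 289.3 in monolayer culture, 6.81-fold higher, with 5.00-fold on its second probe set (1164 and 232.9).

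Since most of these proteins are made by the liver and thrombomodulin and protein C receptor by endothelium, markers of other cell types were read beside them. Of 12 hepatocyte and hepatoma markers measured, 3 were at least 3-fold higher in spheroid culture, 4 lay between and 5, APOA2, APOC3, TTR, TF and GPC3, were dim in both. ALB, albumin, had 4639 in spheroid culture and 23.37, under the floor, in monolayer culture, at least 42.9-fold higher. APOH had 8136 in spheroid and 918.9 in monolayer culture, 8.86-fold higher, and RBP4 had 2655 and 606.2, 4.38-fold higher. Counted as between were AHSG, with 347.9 in spheroid and 119.7 in monolayer culture, 2.91-fold higher, APOA1 (144.6 and 111.6) and APOB (161.1 and 188.9). So was AFP, with 262.5 in spheroid culture and 105.6, under the floor, in monolayer culture, at least 2.43-fold higher. The summed signal of the hepatocyte list was 16631 in spheroid and 2419 in monolayer culture, with ALB, APOH and RBP4 giving most of the spheroid sum. The part of this list in the result for the clotting, complement and serpin genes was not tested. Of 10 endothelial markers, 7 were dim in both, among them CDH5, KDR, TEK and TIE1. PECAM1 had 474.9 in spheroid and 269.8 in monolayer culture, 1.76-fold higher. The study's own listing has PECAM1 at 31.2-fold higher. That is the ratio without a floor of another probe set, with 69.12 and 2.214, under the floor in both cultures. EGFL7 had 575.7 in spheroid and 744.6 in monolayer culture, and ROBO4 was above the floor in monolayer culture alone. The summed signal of the endothelial list was 1456 in spheroid and 1400 in monolayer culture. The summed signals were 1107 in spheroid and 907.7 in monolayer culture for 6 platelet markers, 400.8 and 831.2 for 7 macrophage and leukocyte markers, and 1060 and 1320 for 8 fibroblast markers. Dim in both were 2 of the platelet markers (PPBP and TREML1), 5 of the macrophage and leukocyte markers and 6 of the fibroblast markers, among them COL1A2, PDGFRB and POSTN. Above the floor in both were 4 platelet markers, PF4 (515.7 in spheroid and 288.9 in monolayer culture), GP9 (179.5 and 172.5), ITGA2B (120.7 and 219.4) and GP1BA (122 and 146.1). The fibroblast markers COL1A1 (618.1 and 852.4) and DCN (132.4 and 209.1) were so too. ITGA2B, lower in spheroid culture here, is in the study's own listing at 6.11-fold higher. That is the ratio without a floor of another probe set, with 54.35 and 8.896, under the floor in both cultures. FCER1G was above the floor in monolayer culture alone. LYZ, COL3A1 and LUM, counted as dim, each had 1 other probe set above the floor in 1 culture. Of these last 3 lists, only that of macrophages and leukocytes held a gene past the limit, CD14, with 110.6, under the floor, in spheroid and 436.6 in monolayer culture, while PTPRC, TYROBP and CSF1R were dim in both.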

How the data were processed

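A single array of the Affymetrix Human U133 plus 2.0 type was run per culture. The authors deposited linear signal intensities of 54675 probe sets, already scaled. MAS5 and GCOS are named in the submitters' processing notes, with versions not given in the sources used here, and the study's methods name GeneSpring GX for later steps. No further scaling was applied here. The floor was the median of an array without its 62 control probe sets, and lower signals were set to it. Of the 41097 probe sets that the platform annotation ties to 1 gene, 41043 had the symbol renewed through the Entrez identifier. The 1801 probe sets with several genes and 11777 with none were not used. Each gene was read from its probe set of highest mean log2 signal and expressed as the log2 of the spheroid signal over the monolayer signal. With 1 array per culture no test was run, and precision is limited by this number of arrays. The 48 genes, the pathway and marker lists and the 3-fold limit, which came from the lowest fold of the study's listing, were chosen with earlier results of these data known. Every gene past the limit was named in full, the other members above the floor with both signals, and up to 3 genes per list and direction from the pathway lists. Listed genes without a probe set of their own were not analysed here. Results were recomputed without a floor, with the 25th or 75th percentile as floor, after quantile normalization, after median scaling, with all probe sets of a gene averaged on the log scale, after omission of probe sets named _s_at or _x_at, which can detect related transcripts, and at limits of 2-fold and 5-fold. Neighbouring genes and promoters came from RefSeq tables on GRCh38.p14, and 10 motifs were searched in promoters. Scripts were tested on simulated data and run with numpy 2.4.6, scipy 1.17.1, matplotlib 3.10.9 and pandas 2.3.3 under Python 3.11.15.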

Additional observations from a re-analysis of the deposited data

How the results depend on the processing

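The 9 members at least 3-fold higher became 5 with a floor at the 75th percentile, 5 without probe sets named _s_at or _x_at and 2 at a limit of 5-fold. The 1 member lower became 2 under median scaling, which added CD55, and 3 at a limit of 2-fold, which added CD55 and PROCR. The 12 members dim in both cultures became 5 with a floor at the 25th percentile and 21 with one at the 75th. Under the other alternatives run, the higher count ran between 7 and 12, and the median log2 ratio of members between 0.31 and 0.63 under all of them. Median scaling shifted the median log2 ratio of all genes to -0.10, against 0.04 as reported, with 249 genes higher and 344 lower, where 309 and 279 were reported. With no floor, 1312 genes were higher and 1014 lower, and with a floor at the 75th percentile 109 and 150. A 2-fold limit gave 908 and 728, a 5-fold limit 103 and 126. TFPI2, FGL1 and C5 stayed past the limit under all 7 alternatives to the floor, scaling and probe set. PROS1 did so under the 6 that gave it a value, and so did SERPINA5. C1S was under it, at 1.48, without probe sets named _s_at or _x_at. THBD was at least 1.47 with the floor at the 75th percentile, F5 at least 0.87 in the lower of 2 alternatives, SERPINE2 at least 1.18 with averaged probe sets and SERPINA1 at least 0.18 in the lowest of 3. These bounds miss the limit because monolayer signals were raised to the floor, except SERPINA1 without probe sets named _s_at or _x_at, a measured ratio. With the floor at the 75th percentile ITIH2, HABP2, C4BPA, LRP1 and SOCS3 did not reach the limit either, nor did TGM2, LRP1 and SOCS3 with averaged probe sets. Without a floor, where dim signals also give ratios, some lists with 0 genes past the limit gained some. These were 2 other complement components, 1 other serpin and 3 membrane serine proteases on the higher side. Among acute phase genes 1 was then higher and 2 were lower. TFPI, FGA and PLAUR, all near 0, changed sign under median scaling, and TFPI and CD46 with averaged probe sets. Of 233 log2 ratios of single members under alternatives, 17 moved by more than 0.50 on the log2 scale, and no member past the limit changed direction. The value of 0.50 is the SD of the difference between 2 probe sets of a gene. The cause of the other changes was not tested. No paired analysis was possible because each culture had 1 array. Precision is limited by 1 array per culture, and signals near the floor bound a ratio from one side.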

Other observations

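Over all genes with a probe set, 1.56% were past the limit on the higher side and 1.41% on the lower side. Of 14 membrane serine proteases, which include several that act on the same inhibitors, 0 were at least 3-fold higher or lower in spheroid culture, 5 lay between and 9 were dim in both. Their median log2 ratio was 0.01. HPN, hepsin, which can activate factor VII, had 191.1 in spheroid and 189.3 in monolayer culture. DPP4, counted as between, had 153.3 in spheroid culture and 13.36, under the floor, in monolayer culture. It was at least 1.42-fold higher, a bound that does not show whether DPP4 is past the limit. The study's own listing has DPP4 at 11.5-fold higher, the ratio of this probe set without a floor. Of 10 acute phase protein genes measured, 0 were past the limit, 6 lay between and 4, among them CRP, were dim in both. The median log2 ratio was 0.40. CP, ceruloplasmin, had 2564 in spheroid and 1368 in monolayer culture, and LCN2 went the other way, with 1024 in spheroid and 1572 in monolayer culture.

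Of 13 genes of the interleukin-6 and STAT3 pathway, which drives many acute phase genes in the liver, 1 was lower in spheroid culture, 11 lay between and 1 was dim in both. The median log2 ratio was -0.05. The lower gene was SOCS3, a feedback inhibitor of the pathway, with 217 in spheroid and 671.3 in monolayer culture, 3.09-fold lower, all 3 of its probe sets above the floor being lower. IL6 itself had 218.2 in spheroid and 490.9 in monolayer culture, and STAT3 had 4072 and 3631. HPN, DPP4, CRP, CP, LCN2, IL6 and STAT3 were named after their values were seen.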
